A study of Gossypium with 24 samples.

Results

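The genes described here are the 87 of 60633 cotton gene IDs whose mean abundance was at least 2-fold higher in roots of variety 4847 than in roots of variety 9001 in each of 4 conditions. Abundance for this choice was CPM, a gene's read count per 1000000 counts of its library, averaged over the 3 libraries of a group. A mean of at least 0.5 CPM in 4847 was also required in every condition. A limit of 250 genes, to be applied by the size of the difference, was not reached. The genes were thus chosen by the difference between the varieties, which is described below without a test.

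RNA from cotton (Gossypium) seedling roots, taken at the four-leaf stage, was sequenced in 24 libraries. Flooded plants of either variety were kept in darkness under flooding for 96 h and sampled at once (flooded, 0 h), or drained, returned to light and sampled 24 h later (flooded, 24 h). Their controls were kept for 96 h in darkness without flooding and sampled at once (control, 0 h) or after 24 h in the light (control, 24 h). The 96 h of darkness is thus shared by all 8 groups of 3 libraries. The submitters describe 4847 (Z4847) as sensitive to flooding and 9001 (ZM9001) as tolerant of waterlogging. No plants were kept dark up to 24 h, so light and elapsed time cannot be told apart. The labels do not state whether libraries of a group are from different plants. The p-values below therefore measure only how far these libraries vary, and that variation may be technical.

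Waterlogging deprives roots of oxygen, because gases diffuse far more slowly through water than through air, and root cells then shift from respiration to fermentation. Draining brings oxygen and oxidative stress back. Cultivated upland cotton is an allotetraploid that carries an A and a D subgenome, so many genes have a near-identical copy on the other subgenome. The deposited tables give gene IDs without names or descriptions, so the genes are given by ID and no role is assigned to them; in an ID such as Ghir_D06G002590, D06 is the chromosome and the digits after G follow the order of the IDs. Where reads match both copies, the split of counts between them is uncertain. The labelled tissue, root, could not be checked against marker genes for the same reason.

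Library totals ran from 21423479 to 39945111 counts. The 3 flooded 4847 libraries at 24 h were the shallowest, at 21423479 to 22442564 counts. The groups also differed in composition: the TMM factors, which rescale each library so that most genes match between libraries, lay between 0.574 and 1.48. Plain CPM and TMM-scaled CPM therefore differ between conditions, and the scale is named with each value. In bulk roots, fewer cells of a type and less RNA per cell cannot be told apart.

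The 87 genes were a small remainder of larger sets. By the same rule in 1 condition alone, 2383 IDs (3.93% of all) were higher in 4847 in flooded roots at 24 h, 2054 (3.39%) in flooded roots at 0 h, 957 (1.58%) in control roots at 24 h and 670 (1.11%) in control roots at 0 h. Meeting it in all 4 conditions were 0.143% of IDs. All these shares are by plain CPM. On that scale, 22.9% of all IDs were higher in 9001 by the mirrored rule in flooded roots at 24 h, against 2.30% at 0 h. The TMM factors of flooded roots at 24 h were 0.891 to 0.902 in 4847 and 1.21 to 1.23 in 9001. The shares do not take that difference in composition into account.

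The genes ranged from a gap of just over 2-fold to absence of counts in 9001. By plain CPM, their median abundance was 10.8 in flooded 4847 roots at 24 h, against 0.594 in flooded 9001 roots. In flooded roots at 0 h the medians were 4.72 CPM in 4847 and 0.279 CPM in 9001. In control roots at 24 h they were 8.44 CPM in 4847 and 0.490 CPM in 9001, and in control roots at 0 h 11.9 CPM in 4847 and 0.768 CPM in 9001. Every 4847 library lay above every 9001 library for 86 of the 87 in flooded roots at 24 h, where this held for 13.2% of all IDs. The same was true of all 87 in flooded roots at 0 h (23.9% of all IDs), all 87 in control roots at 24 h (19.1%) and 86 in control roots at 0 h (11.9%). It held in all 4 conditions for 85 of the 87, and for 1.24% of all IDs. The 2 genes with an overlap in 1 condition were Ghir_A01G011520 and Ghir_D12G015910; both these counts follow from the choice of genes and support nothing by themselves.

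**Figure D1:**
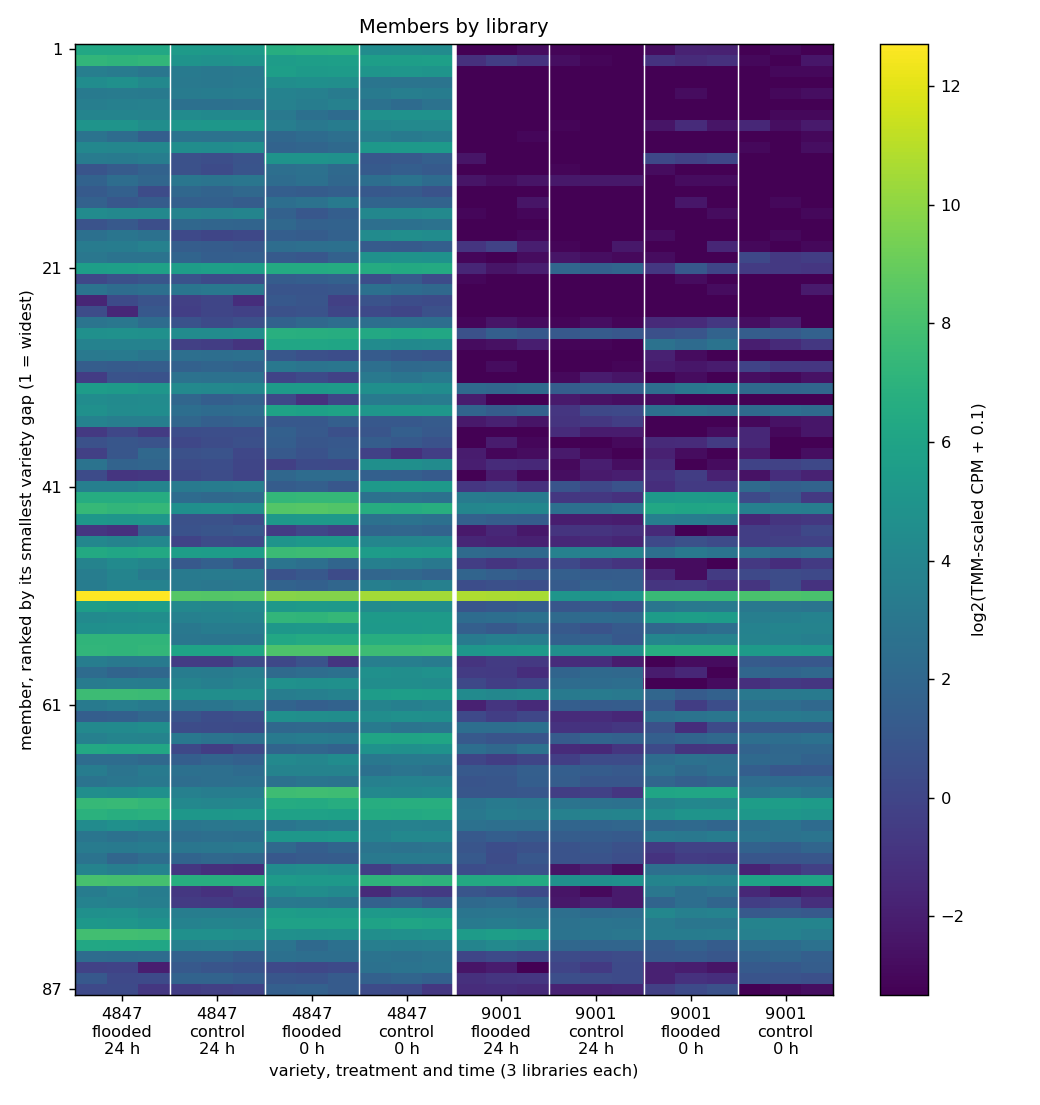
Each row is 1 of the 87 genes and each column 1 of the 24 libraries, with 4847 to the left of 9001, and colour gives log2(TMM-scaled CPM + 0.1), with genes ordered from the widest to the narrowest smallest gap. All 87 had counts in every 4847 library, whereas 62 to 70 of the 87 had any count in a given 9001 library.

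The list holds both genes whose reads were nearly missing in 9001 and genes read in both varieties at different levels. In 9001, 6 had no count in any of the 12 libraries, a total of 4.54956e+08 counts, and 7 more had 1 to 3 counts. In all, 20 stayed under 0.1 CPM in every 9001 condition, while 29 reached at least 0.5 CPM in every 9001 condition.

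Of the genes without a count in 9001, Ghir_A08G011460 had the highest level per length in 4847, a mean of 12.0 FPKM (reads scaled by gene length and library total). Its FPKM were 16.5, 20.2 and 13.5 in flooded 4847 roots at 24 h, and 10.9, 10.8 and 11.7 in control 4847 roots at 24 h. They were 13.3, 14.2 and 13.6 in flooded 4847 roots at 0 h, and 6.64, 6.24 and 6.42 in control 4847 roots at 0 h. Its 5436 counts over the 12 libraries of 4847 set a fold of at least 2019-fold higher in 4847, taken against a floor of 3 counts over the 12 libraries of 9001 together. Intervals and floors given here cover counting error only. Ghir_A06G012330, a short model of 378 bases, averaged 10.3 FPKM in 4847 and was at least 638-fold higher there. Unlike Ghir_A08G011460 it was lower in flooded than in control roots at 24 h: it had 3.83, 5.07 and 3.21 FPKM in flooded 4847 roots at 24 h, and 15.2, 14.5 and 13.8 FPKM in control 4847 roots at 24 h. On counts with TMM scaling, the log2 fold change of flooded over control 4847 roots at 24 h was -1.13 for Ghir_A06G012330 (edgeR adjusted p = 0.000316) and 1.30 for Ghir_A08G011460 (edgeR adjusted p = 6.34e-11). The other 4 genes without a count in 9001 had 441 to 3351 counts in 4847.

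The choice has no natural gap at its boundary. The gene with the smallest ratio among the 87 was Ghir_D10G025690, whose lowest ratio of 4847 to 9001 over the 4 conditions was 2.02. The nearest ID left out on the ratio was Ghir_A02G019330, with a lowest ratio of 1.99. Lowest ratios of 2 to 2.2 were found in 16 of the 87, and 16 further IDs that passed the 0.5 CPM requirement had lowest ratios of 1.8 to 2. At 4-fold in every condition 45 of the 87 would remain.

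The size of the gap, given as log2((4847 + 0.1)/(9001 + 0.1)) of mean plain CPM, differed widely from gene to gene. Its median was 3.30 in flooded roots at 24 h (0.92 to 9.21), 2.46 in control roots at 24 h (1.02 to 9.16), 2.73 in flooded roots at 0 h (1.09 to 8.63) and 3.20 in control roots at 0 h (0.97 to 8.55). For a single gene, the widest and narrowest gap over the 4 conditions differed by a median of 1.66 log2 units, with a range of 0.18 to 5.96, and by less than 1 for 23 of the 87. The gap was widest in flooded roots at 24 h for 31 genes, in flooded roots at 0 h for 21, in control roots at 24 h for 16 and in control roots at 0 h for 19.

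Flooding moved the gap in both directions. At 24 h the gap in flooded minus that in control roots had a median of 0.13 log2 units; it was wider by more than 1 in flooded roots for 24 genes, narrower by more than 1 for 11 and within 1 for 52. At 0 h the median was 0.04, and the gap was wider for 11 genes, narrower for 25 and within 1 for 51. The narrowing was largest for Ghir_A03G006900 at 0 h, by 4.16 log2 units. In 9001 at 0 h it had 1 count in flooded and 0 in control roots, so the ratio was not measured there. The narrowing follows its 4847 means, 0.503 CPM in flooded and 9.82 CPM in control roots. A like limit holds for the 20 genes under 0.1 CPM in every 9001 condition, whose gaps depend on the added 0.1. The differences in gap were part of the choice of genes and were not tested. They also hold for plain CPM only. In flooded roots at 24 h, TMM factors were 0.891 to 0.902 in 4847 and 1.21 to 1.23 in 9001, so gaps there are wider after TMM scaling. For Ghir_D05G038620 the plain means there were 5960 CPM in 4847 and 1986 CPM in 9001, and the TMM-scaled means 6645 and 1627. In flooded roots at 0 h the factors were higher in 4847, so gaps there are narrower after TMM scaling.

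**Figure D2:**
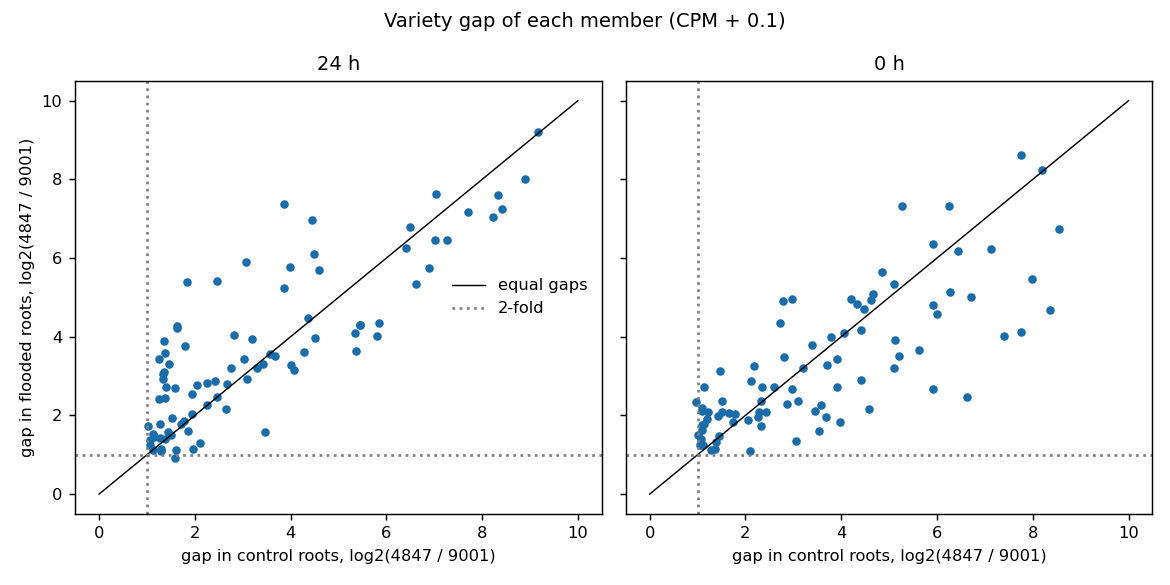
Each point is 1 of the 87 genes, with the log2 ratio of 4847 over 9001 (mean plain CPM + 0.1) in flooded roots on the vertical axis and in control roots on the horizontal axis, at 24 h (left) and at 0 h (right). The solid line marks equal gaps and the dotted lines 2-fold; points lie on both sides of the solid line, with 24 wider and 11 narrower by more than 1 log2 unit at 24 h.

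The genes were spread over the genome with a few clusters. They numbered 45 of 29793 IDs on A chromosomes (0.151%) and 42 of 30840 on D chromosomes (0.136%), and occurred on 24 of the 26 chromosomes, with none on A04 and D08. Chromosomes A06 and D06 carried 7 each, 0.358% and 0.342% of their IDs. Their gene models had a median length of 1653 bases (306 to 5055), against 1770 bases over the IDs with a count.

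By position, 14 of the 87 lay in 5 runs, a run being neighbours at most 5 places apart in the order of IDs. The longest run held 5 genes within 8 IDs, from Ghir_D06G002590 to Ghir_D06G002690. The next held 3 genes within 6 IDs on D03, beginning with Ghir_D03G007800, and the other 3 runs were pairs on A13, D09 and D11. The places are those of the ID order, since no coordinates are in the tables.

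The D06 run was read at a far higher level in 4847. Over all 12 libraries of each variety, Ghir_D06G002590 had 2453 counts in 4847 and 6 in 9001, and Ghir_D06G002690 had 4490 counts in 4847 and 4 in 9001. The 3 members between them, named here after their values were seen, were Ghir_D06G002630 with 10661 counts in 4847 and 28 in 9001, Ghir_D06G002670 with 22165 counts in 4847 and 1111 in 9001, and Ghir_D06G002680 with 9346 counts in 4847 and 2 in 9001. Only Ghir_D06G002670 was read at an appreciable level in 9001. The 3 other IDs inside the run had at most 112 counts in either variety.

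The gaps of the 5 genes ran from 3.19 to 8.89 log2 units over the 4 conditions. Of the 30 IDs on either side, 55 reached 0.5 CPM in some group, and 0 of them were at least 2-fold higher in 4847, or in 9001, in every condition. The median gap of these 55 IDs was -0.65 in flooded roots at 24 h, 0.04 in flooded roots at 0 h, 0.02 in control roots at 24 h and -0.07 in control roots at 0 h. The 5 genes did not move together within 4847. Ghir_D06G002690 had TMM-scaled CPM of 9.23, 9.98 and 9.81 in flooded roots at 24 h, 10.2, 10.3 and 10.9 in control roots at 24 h, 13.4, 12.5 and 10.0 in flooded roots at 0 h, and 9.08, 11.4 and 10.7 in control roots at 0 h. It passed the test in none of the 4 comparisons within 4847 (edgeR adjusted p = 0.505 for flooding at 24 h and 0.215 for flooding at 0 h). Ghir_D06G002590 was lower in flooded than in control 4847 roots at 0 h, with 1.66, 1.68 and 1.85 CPM against 5.90, 4.82 and 4.14 CPM, a log2 fold change of -1.51 (edgeR adjusted p = 1.69e-06).

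**Figure D3:**
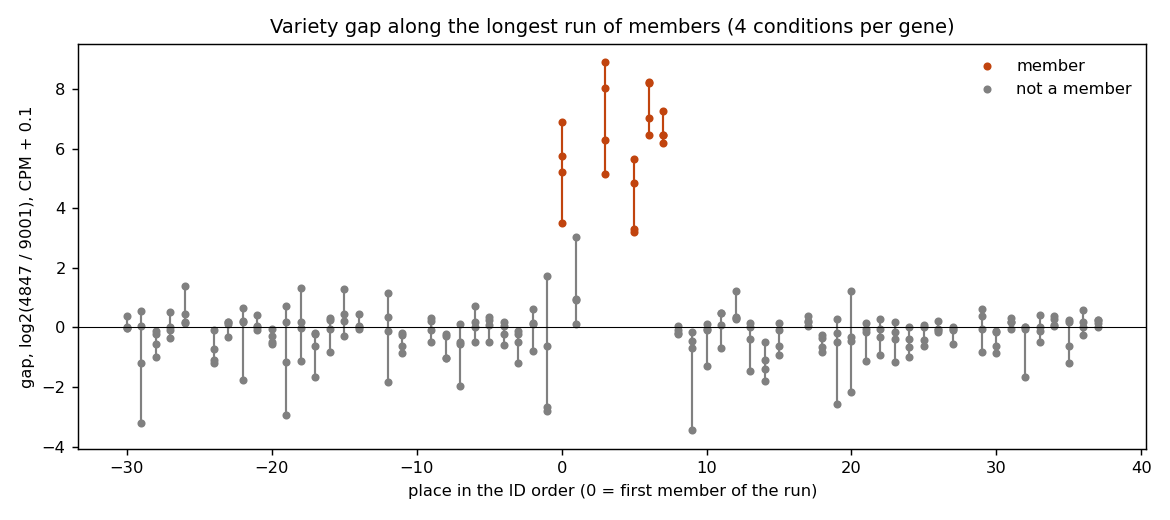
Points show the log2 ratio of 4847 over 9001 (mean plain CPM + 0.1) in each of the 4 conditions, joined by a vertical line for each ID, along the order of IDs on D06 from 30 places before the run of 5 genes to 30 after it. IDs that stayed below 0.5 CPM in all groups are not drawn. The 5 genes stand at 3.19 to 8.89, and the median of the flanking IDs lies between -0.65 and 0.04.

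The neighbourhoods of the 87 differed in both directions. Among the 769 IDs within 5 places of one of them, leaving out the 87, 53 (6.89%) were at least 2-fold higher in 4847 in flooded roots at 24 h, where 3.93% of all IDs were. The shares were 5.72% in flooded roots at 0 h (3.39% of all), 3.12% in control roots at 24 h (1.58%) and 2.86% in control roots at 0 h (1.11%). Neighbours higher in 9001 were 21.7% in flooded roots at 24 h, against 22.9% of all IDs, and 4.16%, 3.64% and 4.29% in flooded roots at 0 h, control roots at 24 h and control roots at 0 h, where the shares of all IDs were 2.30%, 2.33% and 1.92%. These shares, by plain CPM, are descriptions, since neighbours share position and were not tested.

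In level per length, the 87 ranged from barely read to very abundant. Their mean FPKM over the 12 libraries of 4847 had a median of 7.95 (0.211 to 2332), with 40 genes above 10 FPKM and 5 below 1 FPKM, and their mean over the 12 libraries of 9001 a median of 0.552 (0 to 667). A single gene, Ghir_D05G038620, made up most of their reads in flooded 4847 roots at 24 h. There the 87 took 0.851% to 0.856% of all counts, and 0.256% to 0.260% without that gene. In control 4847 roots at 24 h they took 0.188% to 0.191%. In flooded 9001 roots at 24 h they took 0.238% to 0.247% of all counts, and in control 9001 roots at 24 h 0.0322% to 0.0328%.

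Ghir_D05G038620 was strongly higher in flooded than in control roots 24 h after draining, in both varieties. In TMM-scaled CPM it had 6694, 6601 and 6639 in flooded 4847 roots at 24 h, against 365, 335 and 351 in control 4847 roots, a log2 fold change of 4.25 with an SE of 0.04 (edgeR adjusted p = 1.63e-49). In 9001 at 24 h it had 1679, 1631 and 1572 in flooded roots, against 33.4, 29.8 and 32.1 in control roots, a log2 fold change of 5.68 with an SE of 0.05 (edgeR adjusted p = 2.89e-52). At 0 h it had 878, 839 and 864 in flooded 4847 roots and 1415, 1427 and 1449 in control 4847 roots, and 183, 188 and 188 in flooded 9001 roots and 272, 296 and 278 in control 9001 roots. The libraries of flooded and control roots did not overlap at either time in either variety, with flooded roots above controls at 24 h and below them at 0 h by less than 2-fold on this scale.

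**Figure D4:**
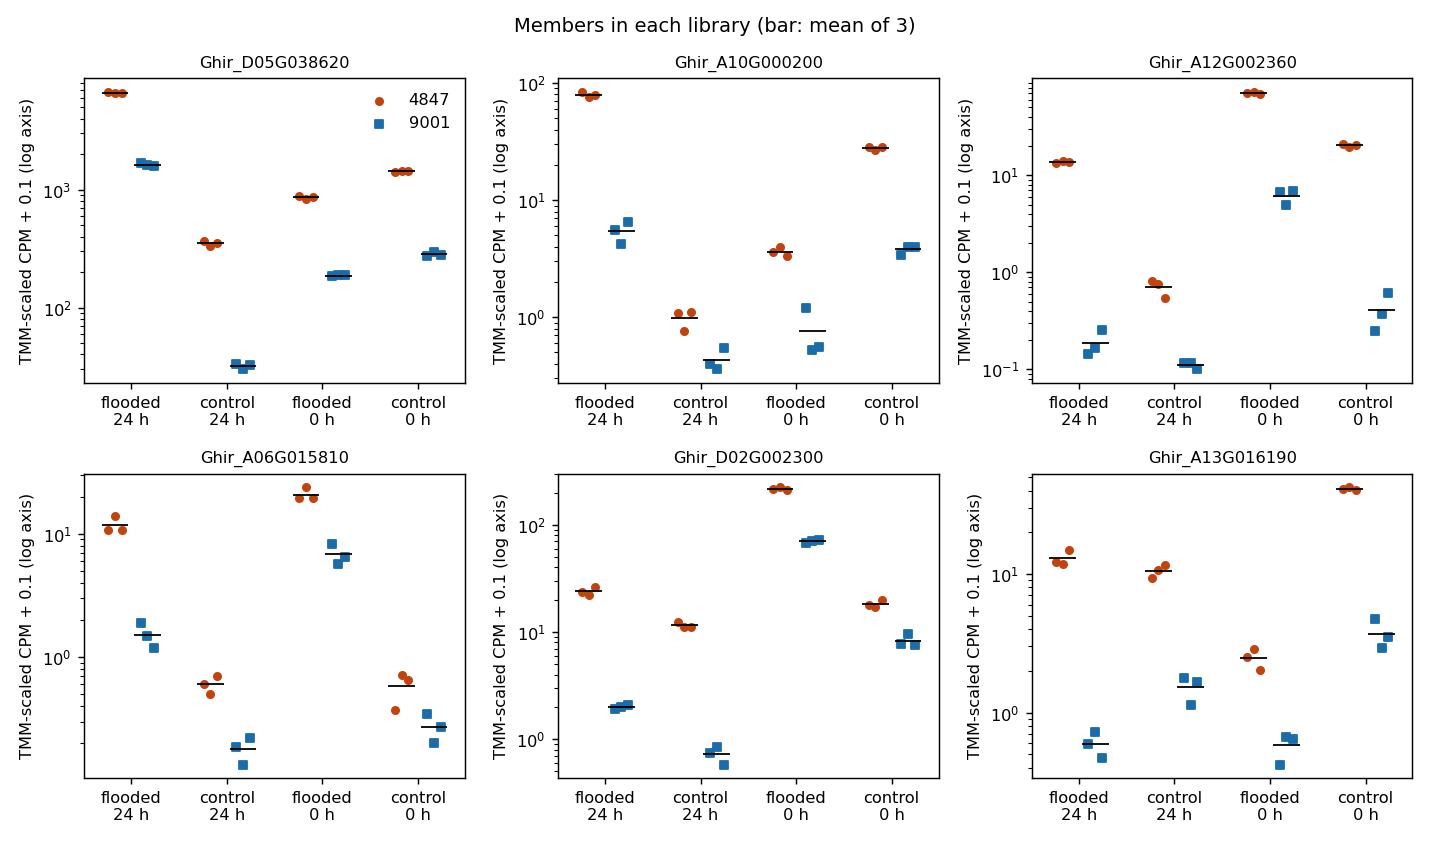
Points are single libraries of 6 of the named genes, as TMM-scaled CPM + 0.1 on a log axis that differs between panels, and bars are means of 3 libraries, with 4847 (circles) to the left of 9001 (squares). In the wide contrasts the 3 libraries of a group lie close together compared with the distance between groups. An example is Ghir_A10G000200, with 83.4, 76.4 and 78.8 CPM in flooded and 0.993, 0.657 and 1.02 CPM in control 4847 roots at 24 h. Some other groups overlap. Ghir_A06G015810 in control 4847 roots had 0.505, 0.398 and 0.596 CPM at 24 h and 0.274, 0.618 and 0.551 CPM at 0 h.

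Within each variety, the response to flooding and the change over 24 h were tested with edgeR over all 50638 genes that passed a filter on low counts, which all 87 did. A gene was called when its adjusted p was below 0.05 and its change at least 2-fold. The rule bears on these calls, because it required 0.5 CPM in 4847 and a 2-fold lead of 4847 in each of the conditions compared. The counts of calls are therefore given beside the share of all tested genes called and, for each comparison, beside the genes that met the rule in both of its conditions. Each of those sets includes the 87, so it is not a separate group of genes. For each comparison within 4847, the 2 largest fitted rises and the 2 largest fitted falls are named, out of called genes whose higher group averaged 5 CPM or more and whose libraries did not overlap. The number after ± is the SE of a log2 fold change, which is approximate.

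At 24 h in 4847, 41 of the 87 were called higher in flooded than in control roots and 5 lower, where 19.4% of all tested genes were called higher and 27.8% lower. As shares these were 47.1% higher and 5.75% lower. Their median log2 fold change was 0.78, against -0.11 over all tested genes. Of the 31705 tested genes with at least 0.5 CPM in 4847 in every condition, 22.1% were higher and 13.2% lower. Of the 190 that met the rule in both conditions compared, 46.8% were higher and 10.0% lower. The shares of the 87 lie near these, but the 87 are part of the 190. With library totals as the only scaling, which moved the median of all genes to -0.82, the split was 27 higher and 16 lower.

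The largest rise was that of Ghir_A10G000200, with 83.4, 76.4 and 78.8 TMM-scaled CPM in flooded 4847 roots at 24 h, against 0.993, 0.657 and 1.02 CPM in control 4847 roots, a log2 fold change of 6.48 with an SE of 0.15 (edgeR adjusted p = 2.78e-35). In 9001 it had 5.51, 4.13 and 6.35 CPM in flooded roots at 24 h and 0.296, 0.259 and 0.445 CPM in control roots (3.99 ± 0.20, edgeR adjusted p = 3.99e-22). At 0 h it went the other way in 4847, with 3.49, 3.87 and 3.23 CPM in flooded roots against 28.4, 26.6 and 28.5 CPM in control roots (-2.98 ± 0.14, edgeR adjusted p = 1.45e-23). The gene thus stood high in control roots at 0 h and in flooded roots at 24 h. The second was Ghir_A01G011520, with 14.0, 11.4 and 13.6 CPM in flooded 4847 roots at 24 h against 0.471, 0.346 and 0.333 CPM in control 4847 roots (5.07 ± 0.24, edgeR adjusted p = 5.40e-23). It was also higher in flooded than in control 4847 roots at 0 h, with 21.7, 23.8 and 21.1 CPM against 0.672, 1.26 and 1.33 CPM (4.35 ± 0.22, edgeR adjusted p = 2.23e-22).

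The largest falls at 24 h in 4847 were smaller. Ghir_A11G034040 had 0.629, 1.63 and 1.55 CPM in flooded roots against 6.36, 6.17 and 6.31 CPM in control roots (-2.30 ± 0.27, edgeR adjusted p = 4.59e-10). Ghir_A02G000750 had 4.77, 3.46 and 4.00 CPM in flooded roots against 10.6, 10.0 and 11.7 CPM in control roots (-1.40 ± 0.16, edgeR adjusted p = 1.28e-10). In flooded against control 4847 roots at 0 h, Ghir_A11G034040 was lower too (-3.25, edgeR adjusted p = 4.44e-14), as was Ghir_A02G000750 (-2.29, edgeR adjusted p = 2.54e-18).

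At 0 h, at the end of flooding, 23 of the 87 were called higher and 24 lower in flooded than in control 4847 roots, where 25.0% of all tested genes were called higher and 27.2% lower. The shares of the 87, 26.4% and 27.6%, lie near those values, and the medians were -0.05 for the 87 and -0.06 for all tested genes. Among the 251 genes that met the rule in both conditions compared, 28.7% were higher and 29.5% lower. Scaled by library totals alone, the split was 12 higher and 36 lower, while the median of all genes moved to -0.73.

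The largest rise at 0 h was that of Ghir_A06G015810, with 19.2, 23.6 and 19.2 TMM-scaled CPM in flooded 4847 roots against 0.274, 0.618 and 0.551 CPM in control 4847 roots, a log2 fold change of 5.42 with an SE of 0.24 (edgeR adjusted p = 5.96e-24). It was still higher at 24 h, with 10.7, 13.8 and 10.6 CPM in flooded roots against 0.505, 0.398 and 0.596 CPM in control roots (4.54, edgeR adjusted p = 1.22e-21). Ghir_D04G010580 had 160, 164 and 167 CPM in flooded 4847 roots at 0 h against 6.27, 6.40 and 5.86 CPM in control roots (4.72 ± 0.10, edgeR adjusted p = 1.82e-36). In 9001 the same gene had 40.2, 44.6 and 43.2 CPM in flooded roots at 0 h against 1.04, 1.97 and 0.538 CPM in control roots (5.17, edgeR adjusted p = 2.11e-33). For both genes no flooded library overlapped a control library in either variety.

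The largest falls at 0 h were those of Ghir_A07G008160 and Ghir_A13G016190. Ghir_A07G008160 had 0.707, 1.14 and 1.05 CPM in flooded 4847 roots against 24.7, 25.2 and 20.7 CPM in control 4847 roots (-4.61 ± 0.26, edgeR adjusted p = 2.34e-20). At 24 h it was higher in flooded roots, with 6.71, 3.36 and 3.65 CPM against 1.24, 1.26 and 0.912 CPM (2.00 ± 0.25, edgeR adjusted p = 1.38e-09). Ghir_A13G016190 had 2.41, 2.78 and 1.93 CPM in flooded 4847 roots at 0 h against 40.8, 42.1 and 40.7 CPM in control 4847 roots (-4.11 ± 0.16, edgeR adjusted p = 3.31e-26). At 24 h its change was under 2-fold (0.30).

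Read together for each gene, 13 of the 87 were called higher in flooded 4847 roots at both times (9.21% of all tested genes) and 3 lower at both (11.6% of all). A further 20 were called higher at 24 h with no call at 0 h (7.70% of all), and 10 higher at 0 h with no call at 24 h (11.3% of all). Lower at 0 h but higher at 24 h were 8 (2.54% of all), as Ghir_A10G000200 and Ghir_A07G008160 were. These comparisons passed through the same choice of genes, so the counts are descriptions.

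In the controls of 4847, most called genes were lower after 24 h in the light than at the end of darkness. Of the 87, 3 were called higher and 40 lower at 24 h than at 0 h, where 28.2% of all tested genes were called higher and 18.2% lower. Their median log2 fold change was -0.80, against 0.09 over all tested genes. Among genes with at least 0.5 CPM in 4847 in every condition, 13.0% were higher and 23.0% lower. Of the 227 that met the rule in both conditions compared, the 87 included, 45 were higher and 68 lower. Nearly all of those 45 were outside the 87, and most of those 68 were among the 87. The split was 8 higher and 32 lower with library totals as the only scaling, under which the median of all genes was 0.58.

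Ghir_A12G002360 had the largest fall in these controls, with 0.715, 0.657 and 0.438 TMM-scaled CPM at 24 h against 20.8, 19.5 and 20.2 CPM at 0 h (-5.06 ± 0.15, edgeR adjusted p = 1.78e-30). Ghir_A10G000200 followed, with the control values given above (-4.96, edgeR adjusted p = 1.20e-30). The largest of the 3 rises was that of Ghir_D11G031040, with 5.75, 5.52 and 6.00 CPM at 24 h against 2.36, 1.83 and 1.65 CPM at 0 h (1.56 ± 0.25, edgeR adjusted p = 5.94e-07). Ghir_A09G023770 had 9.17, 10.1 and 9.87 CPM at 24 h against 3.76, 4.10 and 3.31 CPM at 0 h (1.38 ± 0.19, edgeR adjusted p = 1.68e-08).

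In flooded 4847 roots, 29 of the 87 were called higher at 24 h than at 0 h and 22 lower, where 27.5% of all tested genes were called higher and 23.3% lower. The 376 genes that met the rule in both conditions compared had 51.9% higher and 15.4% lower. The median log2 fold change of the 87 was -0.17, against 0.09 over all tested genes. Scaled by library totals alone, the split was 35 higher and 14 lower.

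Ghir_A03G006900 had 21.8, 20.5 and 21.6 CPM in flooded 4847 roots at 24 h against 0.998, 0.379 and 0.924 CPM at 0 h (4.79 ± 0.27, edgeR adjusted p = 8.08e-20). The other largest rise, of Ghir_A10G000200, was 4.49 (edgeR adjusted p = 2.05e-30). Ghir_D02G002300 had 23.7, 21.9 and 26.1 CPM at 24 h against 216, 223 and 213 CPM at 0 h (-3.18 ± 0.07, edgeR adjusted p = 5.66e-35). Ghir_D04G003410 had 2.62, 2.91 and 4.05 CPM at 24 h against 26.3, 24.4 and 23.0 CPM at 0 h (-2.94 ± 0.15, edgeR adjusted p = 4.77e-22). None of these groups overlapped.

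**Figure D5:**
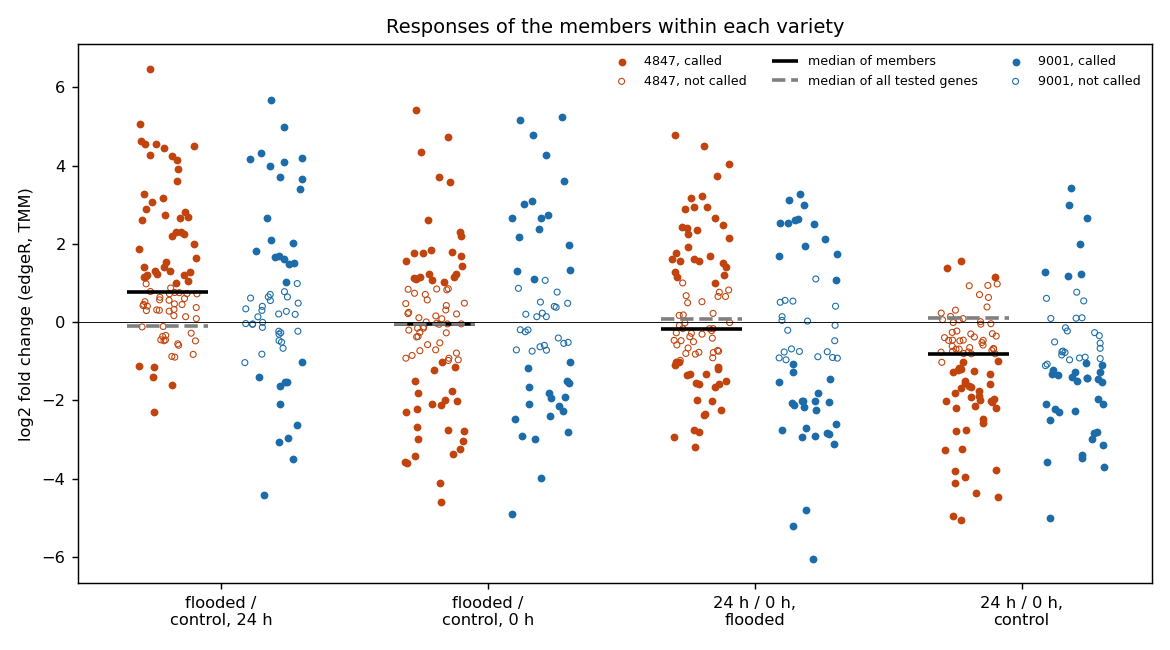
Each point is the log2 fold change of 1 of the 87 genes within a variety (edgeR, TMM scaling), filled where it was called, with 4847 to the left of 9001, and bars give the medians of the 87 and of all tested genes in 4847. In 9001, 56 to 60 genes with more than 3 counts in both groups are drawn, and the medians of the 87 in 4847 run from -0.80 to 0.78.

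Over the 4 conditions of 4847, the 87 were seldom highest in control roots at 24 h. By TMM-scaled means, 25 were highest in flooded roots at 24 h, 35 in flooded roots at 0 h, 4 in control roots at 24 h and 23 in control roots at 0 h, where the shares of all tested genes were 18.4%, 28.7%, 33.7% and 19.2%. By library totals alone the counts were 24, 20, 14 and 29, and 52.1% of all tested genes were highest in control roots at 24 h. The rule bears on these counts too, because it required 0.5 CPM in 4847 in every condition. All tested genes did not have to meet that, and no share among genes that did is given here. The counts are therefore descriptions. The highest and lowest condition of a gene differed by a median of 2.31 log2 units in 4847, with a range of 0.31 to 6.86. In all 4 comparisons within 4847, 10 of the 87 (11.5%) were called, the same share as over all tested genes (11.5%), and 8 (9.20%) were called in none, where 16.4% of all tested genes had no call.

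Many of these genes also changed in 9001, where their levels were lower. At 24 h in 9001, 22 were called higher and 13 lower in flooded than in control roots, or 25.3% and 14.9%, where 13.9% of all tested genes were called higher and 15.1% lower. Of the 190 genes that met the rule in both conditions compared, 33.7% were higher and 17.4% lower. At 0 h in 9001, 20 were called higher and 24 lower (25.8% and 29.8% of all tested genes; 26.7% and 31.5% of the 251 that met the rule in both conditions). Scaled by library totals alone, these were 16 and 35.

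Between 24 h and 0 h, 10 were called higher and 36 lower in control 9001 roots, where 26.4% of all tested genes were called higher and 16.8% lower. Of the 227 that met the rule in both conditions compared, 23.8% were higher and 26.4% lower, and by library totals 11 of the 87 were higher and 22 lower. In flooded 9001 roots, 17 were called higher and 28 lower at 24 h than at 0 h, where 34.3% of all tested genes were called higher and 25.1% lower. Of the 376 that met the rule in both conditions compared, 34.6% were higher and 27.4% lower, and by library totals 25 of the 87 were higher and 18 lower. In these comparisons 22 or 23 of the 87 had fewer than 10 counts over both groups.

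The varieties share no libraries, so their calls can be set side by side. For flooding at 24 h, 1 of the 87 was called higher in 4847 and lower in 9001 (0.247% of all tested genes), and 0 the reverse (0.363% of all). Called higher in both varieties were 22 of the 87 (10.6% of all), and 4 were lower in both (12.1% of all). These 22 are 53.7% of the genes called higher in 4847 and all of those called higher in 9001. Over all tested genes, 54.3% of those called higher in 4847 and 76.1% of those called higher in 9001 were shared. The 4 lower in both are 80.0% of the 5 called lower in 4847 and 30.8% of the 13 called lower in 9001. Over all tested genes those shares were 43.7% and 80.3%. For flooding at 0 h, opposite calls were made for 0 of the 87. Over all tested genes, 0.0750% were called higher in 4847 and lower in 9001, and 0.0513% the reverse. At 0 h, 13 were called higher in both (21.6% of all) and 14 lower in both (23.7% of all). The 13 are 56.5% of those called higher in 4847 and 65.0% of those in 9001, where 86.4% and 83.8% were shared over all tested genes. The 14 are 58.3% of those called lower in either variety, where 87.2% in 4847 and 79.6% in 9001 were shared over all tested genes.

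Over time in controls, 1 was called higher in both varieties (23.7% of all tested genes) and 25 lower in both (14.6% of all). Opposite calls were made for 2, both lower in 4847 and higher in 9001 (0.0198% of all). Over time in flooded roots, 15 were called higher in both (21.4% of all) and 13 lower in both (17.3% of all). Of the 4 with opposite calls there, 3 were higher in 4847 and lower in 9001 (0.348% of all) and 1 the reverse (0.804% of all). Only 35 of the 87 had at least 30 counts in every group, and a gene called in 4847 and not in 9001 is not shown to differ between them; that difference was not tested.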

How the data were processed

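Root RNA was prepared with an RNeasy mini plus kit (Qiagen) and sequenced from SMARTer mRNA libraries, per the labels' protocols. The authors deposited whole-number counts per gene ID, used as deposited, and FPKM values for the same 60633 IDs. The deposited FPKM were the counts scaled by library total and gene length, to a relative tolerance of 1e-06, after 1 line with a missing tab was mended. The submitters' processing notes name mm10, which is a mouse build and goes against the cotton IDs, so the build is unknown. The aligner, the counter and strand use: not given in the sources used here.

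The 87 genes and the comparisons were chosen with earlier results of these data known. Counts were tested with edgeR 4.0.16 in R 4.3.3 (filterByExpr, TMM scaling, glmQLFit, glmQLFTest), with a coefficient per group over all 24 libraries and Benjamini-Hochberg adjustment over 50638 genes. The SE is the size of the log2 fold change divided by the square root of F. The test was run on simulated data in which few genes changed, in a single group. That simulation held no composition differences like those between the groups here, so it does not check the calls against them. Alternatives were other scalings, no filter, DESeq2 1.42.0, limma 3.58.1 on log2(FPKM + 1) or log2(FPKM + 0.1), fits to the compared groups alone, a replicate block, and leaving out each library. Named IDs are the 2 largest rises and 2 largest falls in each comparison within 4847, those with the highest FPKM (among all 87, and among those without a count in 9001), the pair at the boundary of the choice, and the ends of the longest run. Gene lists and sequences could not be used, because no names or genome were given.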

Additional observations from a re-analysis of the deposited data

Results flagged for a closer look

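Under the same contrast, all libraries of 4847 moved one way and all libraries of 9001 the opposite way in 26 pairs of gene and contrast, over 18 of the 87 genes. The share of all tested genes that did so is not given here, so 26 cannot be called many or few. In 6 of the 26, both changes were called by edgeR, and shares of opposite calls over all tested genes are given above. Those 6 and the 1 further pair of a gene named by rule are given here. The difference between the varieties was not tested in any of them. Apart from Ghir_A13G016190 and Ghir_A03G006900, the genes were chosen after their values were seen. Ghir_D11G031040, named above, also had opposite calls over time in flooded roots. It is not among the 26 because its 9001 libraries overlapped, with 0 counts at 24 h and 5 at 0 h over the libraries of each group.

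Ghir_D10G017250 had a log2 fold change of flooded over control roots at 24 h of 1.86 in 4847 (712 counts in flooded and 572 in control roots) and -2.10 in 9001 (17 in flooded and 95 in control roots). Ghir_A13G016190, whose change was called in 9001 and not in 4847, had 0.30 in 4847 and -1.52 in 9001 under that contrast. Its opposite direction rests on TMM scaling. By plain CPM it was lower in flooded than in control 4847 roots at 24 h too, with means of 11.6 and 15.4 CPM. For 24 h over 0 h in control roots, Ghir_A06G013490 had a log2 fold change of -1.77 in 4847 and 1.19 in 9001. Ghir_A03G006900 had -1.55 in 4847, and in 9001, with 14 counts at 24 h and 0 at 0 h, was at least 3.25-fold higher at 24 h, with the 0 taken as 3 counts summed over its libraries.

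For 24 h over 0 h in flooded roots, Ghir_A06G015730 had a log2 fold change of 1.68 in 4847 (603 counts at 24 h and 227 at 0 h) and -2.07 in 9001 (42 counts at 24 h and 85 at 0 h). The size of its fall in 9001, and the separation of libraries there, rest on TMM scaling. Its 9001 libraries had 8, 21 and 13 counts at 24 h and 43, 14 and 28 at 0 h, at similar library totals. By plain CPM the 9001 means were 0.377 at 24 h and 0.766 at 0 h. Ghir_D06G002630 had a log2 fold change of 1.5 in 4847, and in 9001, with 0 counts at 24 h and 10 at 0 h, was at least 6.99-fold lower at 24 h. Ghir_A03G006170 had -1.32 in 4847, and a ratio of 54.3 in 9001, from 114 counts at 24 h and 1 at 0 h (95% interval 9.56 to 2165, counting error only).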

How the results depend on the processing

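Of 229 alternative counts, 201 stayed within 1.5 times the reported one and 28 did not. The balance of higher and lower calls was not scored. For time in flooded 9001 roots it changed sides at least with library totals and with log2(FPKM + 1), where more genes were higher than lower. Genes named for a rise or fall within 4847 were refitted for the comparison that named them. All 224 such values kept their direction and an adjusted p below 0.05. Whether they stayed at least 2-fold was not scored. The cause of the moves below was not tested. For flooding in 4847, library totals gave 27 higher and 16 lower at 24 h and 12 higher at 0 h; log2(FPKM + 1) gave 25 higher at 24 h and 11 at 0 h, and log2(FPKM + 0.1) 27 higher and 16 lower at 24 h and 12 higher at 0 h. For time in 4847 controls, the 3 higher became 6 with RLE scaling, 8 with library totals, 5 with log2(FPKM + 1), 8 with log2(FPKM + 0.1) and 6 with DESeq2. For time in flooded 4847 roots, the 22 lower became 14, 8 and 13 with library totals, log2(FPKM + 1) and log2(FPKM + 0.1). In 9001, log2(FPKM + 1) gave 14 higher and 5 lower for flooding at 24 h, 8 higher at 0 h, 5 higher and 10 lower over time in controls, and 8 higher and 7 lower over time in flooded roots. Lower calls over time in 9001 were 22 (library totals) and 19 (log2(FPKM + 0.1)) in controls, and 18 and 11 in flooded roots.

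A 4-fold rule kept 45 genes, and TMM-scaled means gave 96, of which 83 were shared. Leaving out 1 replicate number gave 85 to 87 genes, and 79 to 81 of the 87 were kept. Neighbours within 25 IDs, an alternative chosen after seeing the data, put 27 genes in runs. Leaving out single libraries gave 38 to 43 higher and 4 to 7 lower for flooding at 24 h in 4847, and 21 to 23 higher and 23 to 26 lower at 0 h. With replicate number as a block, flooding in 4847 gave 41 higher and 5 lower at 24 h and 23 higher and 24 lower at 0 h, and no count moved by over 1.5 times. Same-numbered libraries did not deviate together: correlations over 24 pairs were -0.05 to 0.04. No pairing by number was thus seen in expression. Whether same-numbered samples were handled together is not stated in the labels, and the correlations cannot show it. Depth limits the genes nearly absent in 9001.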
